A study of Mus musculus with 18 samples.

Results

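The genes described here were lower in cells overexpressing genomic MUNC than in both control cells and cells overexpressing spliced MUNC, before and after differentiation. They were chosen on these measured values. A gene was a member if it reached 0.5 FPM or more in at least 3 libraries and its mean log2(FPM + 1) in MUNC genomic cells lay at least 1 below control and at least 1 below MUNC spliced, in both media. A gene was not taken if MUNC spliced cells were themselves lower than control by 1 in both media. FPM is a gene's read count scaled to library size, without correction for gene length. Of 159 genes that met these conditions, 10 carried names of families left out by the rule: Adamts5, Adamtsl3, Mmp16, Epha7, Bmper, Oasl2, Ifih1, Ifit1, Ifit2 and Ifit3. The remaining 149 members were 1.07% of the 13869 genes tested, out of 35275 listed. The same conditions, with the same names left out, gave 152 genes higher only in MUNC genomic cells, 82 lower only in MUNC spliced cells and 101 lower only in control cells.

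C2C12 is a mouse myoblast line, here a stock labelled PAX7 negative, that forms myotubes when serum is lowered. MUNC, a long noncoding RNA, comes from the DNA upstream of the Myod1 gene. The 6 groups were wild-type control cells, cells overexpressing MUNC spliced (the spliced line) and cells overexpressing MUNC genomic (the genomic line), each in growth medium (GM, 20% fetal bovine serum) and after 3 days in differentiation medium (DM3, 2% horse serum), with 3 biological replicates in each group. The vector, its promoter and whether a line was 1 clone or a pool are not given in the sources used here, so a property of a clone and an effect of MUNC cannot be told apart. No gene in the files carried a name of MUNC, and its overexpression was not checked.

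Depth was 38416702 to 68788327 reads per library. Of 10 muscle markers, the myogenic factors Myod1 and Myog averaged at most 0.0993 and 0.344 FPM in control cells of either medium. In MUNC spliced cells they averaged at least 12.4 and 9.27 FPM, and in MUNC genomic cells Myod1 averaged 3.84 FPM in GM and 18.4 FPM in DM3, and Myog 0.0815 and 9.70 FPM. Des, the muscle intermediate filament desmin, averaged 24.2 FPM in GM controls, 27.8 FPM in spliced-line GM and 476 FPM in genomic-line GM. Of the other markers, Myf5, Cdh15, Itga7, Myh3 and Tmem8c averaged lowest in genomic-line GM, and Chrna1 and Tnnt3 lay between the other lines. Cdh15 averaged 46.3, 170 and 22.9 FPM in control, spliced-line and genomic-line GM. Summed muscle markers were 290 to 400, 562 to 819 and 547 to 909 FPM in that order. In DM3 they were 630 to 950, 870 to 1946 and 1757 to 1860 FPM. Summed macrophage markers stayed at or below 5.80 FPM in every library. Summed endothelial markers were 4.07 to 7.64 FPM in the genomic line, mostly Cdh5, and at most 1.74 FPM in the others, with Kdr, Emcn and Erg at no more than 3 reads in every library. Summed epithelial markers in DM3 were 0.848 to 1.25 FPM in control, 8.99 to 35.4 FPM in the spliced and 10.001 to 16.1 FPM in the genomic line, where Krt8 averaged 11.4 FPM. In GM they were 23.8 to 66.1, 60.6 to 135 and 50.5 to 88.1 FPM in that order. Summed fibroblast markers were 4633 to 14031 FPM, with Thy1 and Tcf21 at no more than 3 reads in every library. Neural and glial markers summed to 194 to 259 FPM in genomic-line GM, 334 to 636 FPM in GM controls and 34.3 to 95.9 FPM in spliced-line GM. In DM3 they were highest in the genomic line, at 60.9 to 86.6 FPM, against 23.0 to 27.9 FPM in control and 12.1 to 23.7 FPM in the spliced line. The part of these markers in the results was not tested. In bulk RNA, fewer cells that express a gene and less RNA per cell cannot be told apart.

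As background, cells differ in lineage not only by the genes they switch on but also by genes kept silent, and a silent promoter can be stable through cell division. Interferon-stimulated genes form a shared antiviral program: binding of interferon to its receptor activates STAT and IRF factors, which act on short elements near the start sites of these genes. Cultured myoblasts can carry this program beside the matrix, receptor and channel genes that accompany their differentiation.

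The promoters of 4 members are shown because their genes lie side by side or changed together in the results that follow. Each window of 300 bases runs from 250 bases before to 50 bases after the start site, in RefSeq's annotation of GRCm38.p6. Adal, an adenosine deaminase-like enzyme, and Lcmt2, which modifies a transfer RNA, overlap on opposite strands of chromosome 2. In their promoters, Adal at chr2:121140178-121140477 on the plus strand and Lcmt2 at chr2:121140649-121140948 on the minus strand, capitals mark each CpG.
Adal: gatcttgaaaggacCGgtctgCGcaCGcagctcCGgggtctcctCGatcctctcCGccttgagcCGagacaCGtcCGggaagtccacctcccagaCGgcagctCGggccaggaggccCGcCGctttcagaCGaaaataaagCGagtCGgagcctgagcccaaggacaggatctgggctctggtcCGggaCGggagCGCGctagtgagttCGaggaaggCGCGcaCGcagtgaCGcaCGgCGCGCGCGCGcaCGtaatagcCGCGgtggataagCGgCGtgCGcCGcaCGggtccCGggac
Lcmt2: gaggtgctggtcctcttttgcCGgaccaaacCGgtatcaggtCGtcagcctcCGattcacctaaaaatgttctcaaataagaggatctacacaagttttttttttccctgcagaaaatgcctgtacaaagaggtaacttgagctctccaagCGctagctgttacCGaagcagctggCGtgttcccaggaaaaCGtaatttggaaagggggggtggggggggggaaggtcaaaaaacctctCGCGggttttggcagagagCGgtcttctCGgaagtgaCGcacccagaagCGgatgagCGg
The Adal window held 40 CpG and the Lcmt2 window 15, where the median over 9327 tested genes with an entry in the table was 21. In the promoters of the interferon-stimulated genes Isg15, at chr4:156200769-156201068 on the minus strand, and Gbp3, at chr3:142559794-142560093 on the plus strand, capitals mark matches to the core of the interferon-stimulated response element, searched as GAAA, any 2 bases and GAAA again, on both strands.
Isg15: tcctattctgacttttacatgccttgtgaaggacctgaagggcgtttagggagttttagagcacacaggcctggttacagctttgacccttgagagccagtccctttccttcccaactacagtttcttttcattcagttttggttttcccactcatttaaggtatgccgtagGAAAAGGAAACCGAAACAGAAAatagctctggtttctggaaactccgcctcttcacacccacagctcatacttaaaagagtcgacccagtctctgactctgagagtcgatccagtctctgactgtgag
Gbp3: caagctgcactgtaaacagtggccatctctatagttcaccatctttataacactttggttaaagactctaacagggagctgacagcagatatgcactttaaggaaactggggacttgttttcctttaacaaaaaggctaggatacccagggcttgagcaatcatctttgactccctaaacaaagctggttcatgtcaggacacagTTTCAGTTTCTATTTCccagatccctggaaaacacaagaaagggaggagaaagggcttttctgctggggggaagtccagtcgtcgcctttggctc
The Isg15 window held 3 overlapping matches and the Gbp3 window 2. This motif was added after the values had been seen. It occurred in 6 of the 9 members on a list of interferon-stimulated genes and in 3.06% of the 9327 windows. Only 100 of the 149 members had a window, so a comparison of promoter composition over all members is void.

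The level of the members in MUNC genomic cells was low in both media. Their median was 12.1 FPM in GM controls, 12.99 FPM in spliced-line GM and 1.09 FPM in genomic-line GM. In DM3 the medians were 20.4, 22.8 and 1.44 FPM. The members ranged from silence to clear expression in MUNC genomic cells: 53 averaged below 1 FPM in both media, 25 in 1 medium, and 31 averaged 5 FPM or more in both. For 141 of the 149, every MUNC genomic library lay below every control and every MUNC spliced library of the same medium. The share over all tested genes was 6.07%, and since the rule used these values the count describes the members only. The 8 exceptions were Snai2, Trim12c, Calcrl, Capn6, Irgm2, 9930111J21Rik2, Igtp and Ly6c1, each of which overlapped in GM. The MUNC spliced mean stayed within 1 log2 unit of control in both media for 93 members and was above control by 1 in both for 13. It was below control by 1 or more in GM for 9 members and in DM3 for 16.

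The smallest of the 4 differences that chose a member had a median of 1.43, ran up to 5.60 and was below 1.5 for 79 members. Just inside the threshold were Egfr, the epidermal growth factor receptor, at 1.003, and 2810021J22Rik at 1.004, followed by Trim12c and Ltbp2 at 1.01. Just outside, each at 0.98, were Asb5, 2510002D24Rik, 1500015A07Rik and Nkain1.

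**Figure D1:**
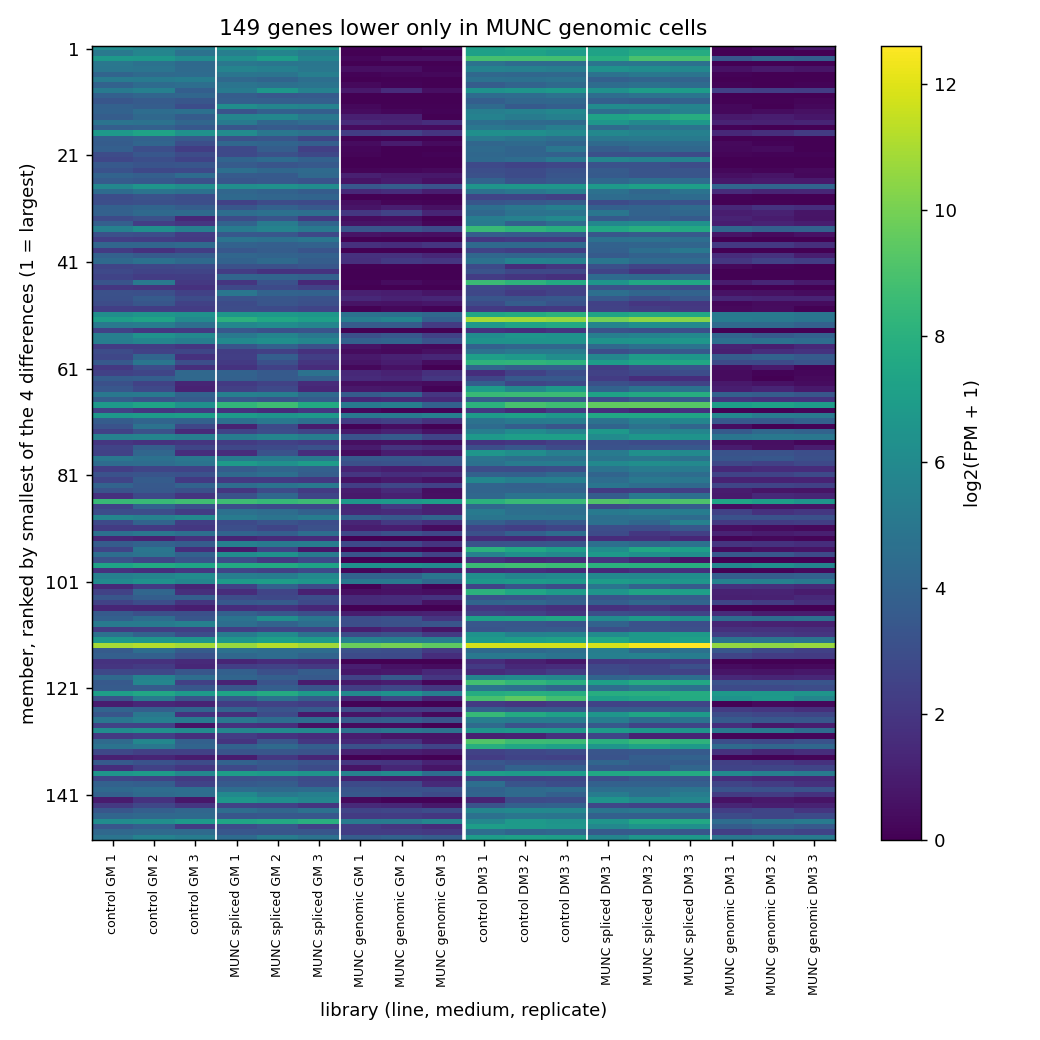
Level of the 149 members, in rows, in the 18 libraries, in columns grouped by medium and line, as log2(FPM + 1) on the colour scale. Rows are ordered by the smallest of the 4 differences that chose them, so the 3 dark columns in each medium are the MUNC genomic libraries by construction, and most of the upper rows are near 0 there.

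The deepest shortfall was that of Brinp3, which encodes a secreted protein mainly studied in neurons (chromosome 1, 146494760 to 146902472, plus strand). Control libraries held 68.5, 52.0 and 42.2 FPM of it in GM and 135, 186 and 171 FPM in DM3. MUNC spliced libraries held 96.3, 136 and 109 FPM in GM and 154, 182 and 142 FPM in DM3. MUNC genomic libraries held 0.0716, 0.0169 and 0.273 FPM in GM and 0.0989, 0.286 and 0.80 FPM in DM3. No MUNC genomic library came near the lowest library of the other lines, and its 6 libraries together had 84 reads of the gene.

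Colec12, a scavenger receptor of the collectin family, was similarly low in GM but not in DM3. It stood at 104, 101 and 65.7 FPM in GM controls and at 75.03, 122 and 49.9 FPM in spliced-line GM, against 0.172, 0.473 and 0.462 FPM in genomic-line GM. In DM3 the values were 469, 453 and 436 FPM in control, 240, 508 and 482 FPM in MUNC spliced and 9.24, 15.2 and 12.4 FPM in MUNC genomic cells. All 3 lines were thus higher in DM3 than in GM, with MUNC genomic cells lowest throughout.

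The members with the next largest shortfalls, among those at 5 FPM or more on average in all 4 other groups, included Bhlhb9 (smallest difference 4.50), the kinase Pak3 (4.31), Mfhas1 (4.08), the macrophage lectin Mgl2 (3.97), Arhgap32 (3.90), Medag (3.81), Sh3rf3 (3.57), Zswim6 (3.44), Tmem45a (3.39) and A230050P20Rik (3.37). Mgl2 held 33.8 to 38.3 FPM in GM controls and 15.9 to 22.2 FPM in spliced-line GM, and in the genomic line no more than 0.0675 FPM. Pak3, which relays Rac and Cdc42 signals, held 19.2 to 29.6 FPM in GM controls, 30.8 to 49.0 FPM in spliced-line GM and 0.105 to 0.429 FPM in genomic-line GM. Both genes were thus low in every genomic-line library, with no overlap.

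Members with nearly no reads in MUNC genomic cells formed a distinct end of the range. For 15 members, no MUNC genomic library held more than 3 reads: Slc24a3, Bhlhb9, Sh3rf3, B3galt1, Chst15, Lysmd2, Sim2, Cpeb1, Tle4, Adal, Zfp2, Lcmt2, E130012A19Rik, Zfp558 and Rab38. Of these, 7 had 0 reads in all 6 libraries: B3galt1, Lysmd2, Tle4, Adal, Zfp2, Lcmt2 and Zfp558. A count of 0 allows up to 3 reads, or no more than 0.0630 FPM in the shallowest MUNC genomic library, and this limit covers counting error only. Over all genes, 14 had at most 3 reads in each MUNC genomic library and 1 FPM or more in each of the other 12 libraries, 13 of them members and the other Mmp16. The same pattern was met by 2 genes in control cells (Fzd3 and Soga3) and by 1 in MUNC spliced cells (Gspt2).

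Slc24a3, a sodium, potassium and calcium exchanger, had 32.7, 52.7 and 26.3 FPM in GM controls and 142, 151 and 125 FPM in DM3 controls. In MUNC spliced cells it had 41.1, 49.95 and 36.4 FPM in GM and 152, 217 and 221 FPM in DM3. The 6 MUNC genomic libraries held 3 of its reads in all. The gene spans 145167754 to 145642166 on the plus strand of chromosome 2.

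The transcription factor Sim2 and the polyadenylation and translation regulator Cpeb1 were not level in the other lines. Sim2 averaged 3.73 ± 0.36 FPM in GM controls and 27.4 ± 2.6 FPM in spliced-line GM (SD, n = 3), and the 6 MUNC genomic libraries held 2 reads of it. Cpeb1 averaged 4.07 ± 0.42 FPM in DM3 controls and 22.7 ± 9.0 FPM in spliced-line DM3, with 5 reads over the MUNC genomic libraries. For both genes the order of the lines was MUNC spliced, control, MUNC genomic.

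The overlapping genes Adal and Lcmt2, whose promoters are printed above, followed the same order. Adal had 4.88, 3.73 and 3.84 FPM in GM controls and 16.2, 15.5 and 13.6 FPM in spliced-line GM. Its DM3 values were 3.69, 2.82 and 2.30 FPM in control and 20.1, 18.8 and 19.4 FPM in MUNC spliced cells. Against the floor of 3 reads per library, averaged over the 3 libraries of a group, control was at least 79.6-fold higher than MUNC genomic in GM and at least 54.0-fold higher in DM3. Lcmt2 had 4.42, 2.99 and 3.33 FPM in GM controls and 9.74, 7.52 and 8.44 FPM in spliced-line GM, and control was at least 68.6-fold higher in GM and at least 45.0-fold higher in DM3. Strandedness of the counting is not given in the sources used here. In the lines that express the pair, reads in the shared stretch could thus have gone to either gene or been left uncounted.

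Of the 30 tested genes flanking the 15 members, 25 (83.3%) had differences below 1 in all 4 comparisons of the rule, against 87.6% of all tested genes with a position, and the only 2 that were themselves members were Adal and Lcmt2, each flanking the other.

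**Figure D2:**
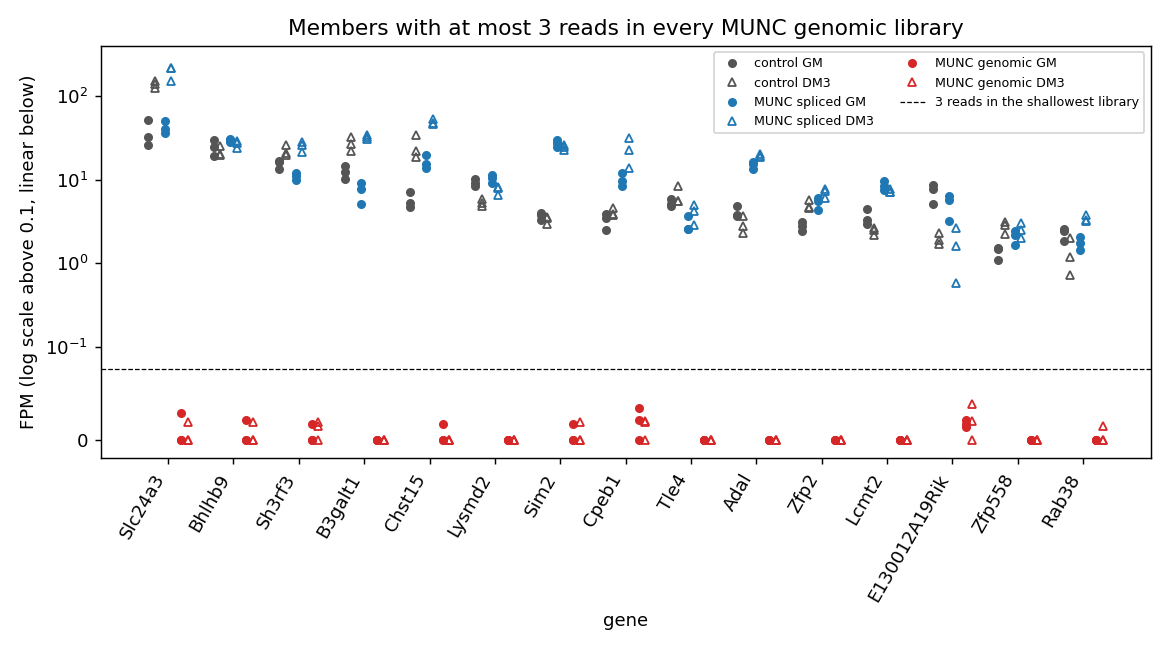
FPM of the 15 members with at most 3 reads in every MUNC genomic library, by gene on the x axis, with 1 point per library, circles for GM and triangles for DM3, on an axis that is logarithmic above 0.1 and linear below. All MUNC genomic points lie below the dashed line at 0.0757 FPM, which marks 3 reads in the shallowest library of any line, and all other points lie above it.

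Members lay on every chromosome but Y, with 18 on chromosome 2, 14 on chromosome 11 and 9 on the X chromosome. By share of the tested genes, the X chromosome (1.99%) and chromosome 12 (1.94%) held the most members. The 9 X-linked members were Bhlhb9, Pak3, Nhs, Fhl1, Taf9b, Armcx6, Capn6, Bgn and Il13ra2. Neighbouring members, with no other tested gene between them, made 14 pairs of 26 members. The guanylate-binding protein genes Gbp7, Gbp3, Gbp5 and Gbp2 stood in 1 run on chromosome 3, where the identifier deposited as Gbp5 is Gbp2b in GENCODE M21. Igtp and Irgm2, interferon-inducible GTPases on chromosome 11, overlap on the same strand, and Ltbp2 and D030025P21Rik overlap on opposite strands of chromosome 12. Reads shared by these overlapping or closely related genes could have gone to either gene or been left uncounted. By annotation 145 members were protein coding, 2 antisense, 1 a lincRNA and 1 a processed transcript.

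Secreted and matrix proteins included Bgn, Fbln5, Ltbp2 and Sdc3, 4 of the 88 tested genes on a list of noncollagen matrix proteins. Bgn encodes biglycan, a small proteoglycan that binds collagen, and ranked highest of all members by FPM, a ranking not corrected for gene length. Its control libraries held 1899.8, 2234 and 1829 FPM in GM and 3505, 3383 and 3371 FPM in DM3. The genomic line had 852, 987 and 714 FPM in GM and 1508, 1389 and 1629 FPM in DM3, so this member stayed strongly expressed. MUNC spliced libraries ranged from 1628 to 2322 FPM in GM and from 3513 to 6197 FPM in DM3. The next in this ranking were Ly6a, Fhl1, Ccdc80, Colec12 and Flrt2.

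Slit2, a secreted guidance protein that signals through Robo receptors, had 12.1, 18.1 and 11.6 FPM in GM controls and 47.2, 37.2 and 43.5 FPM in DM3 controls. MUNC spliced libraries held 52.9, 56.8 and 31.5 FPM in GM and 151, 181 and 233 FPM in DM3. MUNC genomic libraries held 1.15, 1.27 and 0.0210 FPM in GM and 0.831, 1.02 and 0.702 FPM in DM3. Flrt2, a membrane protein that binds Unc5 receptors and latrophilins, and the latrophilin Lphn2 were members too. Lphn2 averaged 82.3 ± 10 FPM in GM controls, 104 ± 7.9 FPM in spliced-line GM and 23.0 ± 4.1 FPM in genomic-line GM (SD, n = 3).

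Receptors and channels included Egfr, Notch1, the adrenomedullin receptor subunit Calcrl, and 5 members each on the list of G protein-coupled receptors and RGS proteins (Adra1d, Ptgfr, S1pr3, Lphn2 and Rgs2; 84 tested) and of ion channels (Kcnf1, Kcnj2, Cacnb2, Grik5 and Glrb; 67 tested). Kcnj2, an inward rectifier potassium channel that sets the resting potential during myoblast fusion, had 13.1, 4.04 and 2.98 FPM in GM controls and 34.3, 14.3 and 21.9 FPM in DM3 controls. MUNC spliced libraries held 15.3 to 37.2 FPM in GM and 55.8 to 82.5 FPM in DM3, against 0.126 to 0.641 FPM and 1.01 to 1.37 FPM in MUNC genomic cells. Glrb, the beta subunit of the glycine receptor, averaged 11.8 ± 4.6 FPM in GM controls, 15.4 ± 2.2 FPM in spliced-line GM and 0.528 ± 0.36 FPM in genomic-line GM (SD, n = 3).

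Transcription factors on the lineage list were Osr1, Irx3, Snai2 and Sim2, of 124 tested. Osr1, a zinc finger factor of connective tissue and kidney progenitors, had 13.3, 14.3 and 10.003 FPM in GM controls and 30.9, 27.3 and 40.3 FPM in DM3 controls. Genomic-line libraries had 0.358, 0.321 and 0.294 FPM in GM and 0.0791, 0.0151 and 0.0390 FPM in DM3, below all of the 9.26 to 11.4 FPM in spliced-line GM and 19.3 to 27.4 FPM in spliced-line DM3. Myf5, a myogenic regulatory factor of early muscle progenitors, was the only member of 35 tested genes on the myogenic list. It had 67.8, 81.5 and 66.0 FPM in GM controls, 53.2, 63.8 and 59.0 FPM in spliced-line GM and 24.3, 30.1 and 25.8 FPM in genomic-line GM.

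The change with differentiation within a line was not a condition of the rule, but it is made of the same group means, and members had to be low in MUNC genomic cells in both media. The members' counts and medians are therefore a description. The change was tested with limma over all 13869 genes, with Benjamini-Hochberg adjusted p under 0.05 as the call. In control cells 98 of the 149 members changed, 82 higher and 16 lower in DM3. Over all genes tested, 58.2% changed, 29.6% higher and 28.6% lower. The members' median log2 change was 0.58, against 0.02 over all genes. In MUNC spliced cells 81 members changed, 66 higher and 15 lower, where the shares over all genes were 35.6%, 17.2% and 18.4%. The median was 0.48, against -0.01 over all genes.

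In MUNC genomic cells 54 members changed, 40 higher and 14 lower, where the shares over all genes were 51.4%, 26.3% and 25.1%. The median was 0.10, against 0.02. The 15 near-silent members, with at most 3 reads in each MUNC genomic library, could not have been called there. More members were called with a pseudocount of 0.1 (79), and with edgeR (77) and DESeq2 (80) on recovered reads. Over all 13869 genes these settings called 7257, 7139 and 7501. The low count of members called in MUNC genomic cells thus depended on the setting. Of the 54 members higher in both control and MUNC spliced cells, 29 were also higher in MUNC genomic cells, none was lower and 25 were not called. The matching shares over all genes were not computed, so these counts describe the members only. The difference between MUNC genomic cells and the other lines in the response to differentiation was not tested, since it is made of the values that chose the members.

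**Figure D3:**
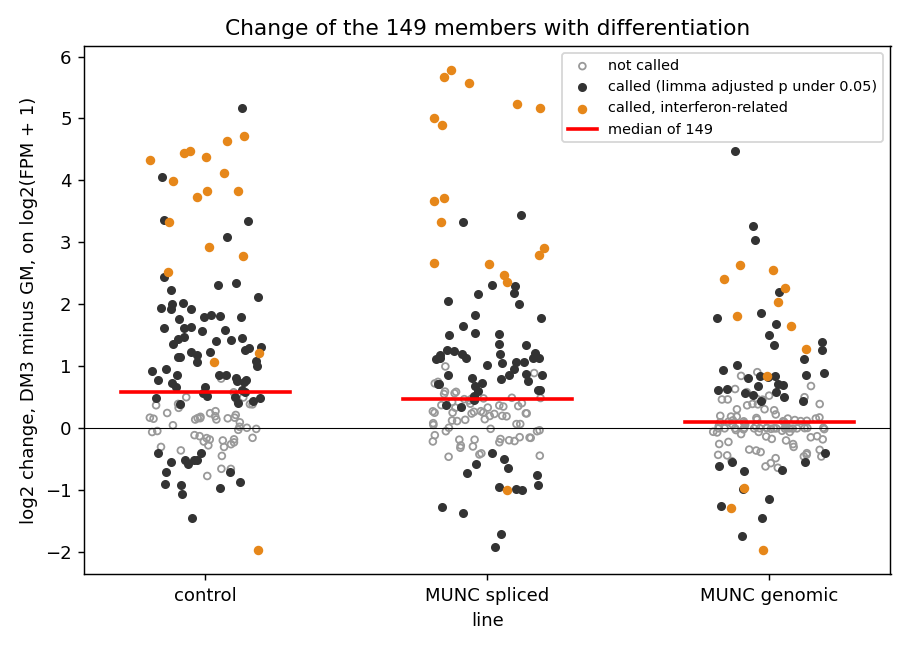
Change of each of the 149 members between GM and DM3 in each line, as the difference of mean log2(FPM + 1), with filled points for calls, orange for interferon-related members and a red bar at the median. The medians are 0.58 in control, 0.48 in MUNC spliced and 0.10 in MUNC genomic cells, and the largest rises in control and MUNC spliced cells are mostly orange points.

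Several members rose in all 3 lines from different levels. Txnip, a thioredoxin-binding protein that follows glucose supply, had 8.31, 35.4 and 8.39 FPM in GM controls and 480, 702 and 433 FPM in DM3 controls. In the genomic line it went from 1.75, 5.22 and 1.60 FPM to 84.7, 107 and 51.6 FPM. In MUNC spliced cells it went from 10.98, 24.9 and 12.01 FPM to 143, 167 and 210 FPM. The log2 changes were 5.17 ± 0.47, 4.48 ± 0.47 and 3.44 ± 0.47 in control, MUNC genomic and MUNC spliced cells (SE; limma adjusted p 4.17e-07, 2.32e-06 and 6.76e-05), and GM and DM3 libraries did not overlap in any line.

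Myom2, which encodes a protein of the sarcomere's M-band, rose by 3.34 ± 0.37 in control, 3.33 ± 0.37 in MUNC spliced and 3.04 ± 0.37 in MUNC genomic cells on the log2 scale (SE; limma adjusted p 1.97e-06, 8.15e-06 and 6.97e-06). Its MUNC genomic libraries went from 0.845, 1.32 and 0.546 FPM to 11.04, 18.1 and 15.1 FPM, against 40.6 to 68.3 FPM in DM3 controls. Colec12 rose by 2.34 ± 0.30, 2.32 ± 0.30 and 3.26 ± 0.30 in the same order (limma adjusted p 8.28e-06, 4.21e-05 and 8.82e-07). Egfr rose by 1.82 ± 0.24, 1.54 ± 0.24 and 1.27 ± 0.24 (limma adjusted p 1.15e-05, 0.000208 and 0.000437), and Bgn by 0.79 ± 0.20, 1.36 ± 0.20 and 0.84 ± 0.20 (limma adjusted p 0.00275, 0.000105 and 0.00220). These rises passed the test in every line.

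Other members were called higher in control cells, or in control and MUNC spliced cells, but not in MUNC genomic cells. Slc24a3 rose by 1.93 ± 0.20 and 2.18 ± 0.20 on the log2 scale (SE; limma adjusted p 1.28e-06 and 1.30e-06), Slit2 by 1.57 ± 0.28 and 2.00 ± 0.28 (limma adjusted p 0.000182 and 8.00e-05), Osr1 by 1.32 ± 0.17 and 1.18 ± 0.17 (limma adjusted p 7.11e-06 and 8.54e-05) and Kcnj2 by 1.82 ± 0.41 and 1.65 ± 0.41 (limma adjusted p 0.00135 and 0.00566). For Kcnj2 the MUNC genomic values given above did not overlap between the media, and log2(FPM + 1) understates changes of such low genes. Brinp3 rose by 1.59 ± 0.20 in control cells (limma adjusted p 7.80e-06) and was not called in MUNC spliced cells. Myf5 rose by 0.52 ± 0.17 in control and 0.86 ± 0.17 in MUNC spliced cells (limma adjusted p 0.0151 and 0.00115), and its change in MUNC genomic cells was 0.10 ± 0.17 (limma adjusted p 0.668). The control call of Myf5 was lost without control GM replicate 3 or control DM3 replicate 2, with adjusted p up to 0.0548.

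Members lower in DM3 were fewer. Mb21d1, the DNA sensor cGAS, had 36.0, 35.9 and 43.1 FPM in GM controls and 9.66, 9.45 and 8.14 FPM in DM3 controls. It went from 22.3, 14.9 and 22.3 FPM to 14.7, 8.05 and 6.74 FPM in MUNC spliced cells, and from 7.13, 7.66 and 8.91 FPM to 1.48, 1.20 and 1.13 FPM in MUNC genomic cells. It fell by 1.96 ± 0.21, 0.99 ± 0.21 and 1.97 ± 0.21 on the log2 scale (SE; limma adjusted p 1.83e-06, 0.00218 and 3.09e-06). The MUNC spliced call was lost, at an adjusted p of 0.0543, when only the groups compared were fitted.

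S1pr3, a receptor for sphingosine 1-phosphate, fell by 0.91 ± 0.29 in control, 1.71 ± 0.29 in MUNC spliced and 1.73 ± 0.29 in the genomic line (SE; limma adjusted p 0.0128, 0.000353 and 0.000129). Its control call was lost without control DM3 replicate 1, at an adjusted p of 0.0852. Loxhd1, a gene of hair cell stereocilia, fell by 0.70 ± 0.25, 1.91 ± 0.25 and 1.44 ± 0.25 in the same order (limma adjusted p 0.0230, 4.11e-05 and 0.000168). Its control call held under 9 of 16 alternatives, and was lost with both count tools and without control GM replicate 3 or control DM3 replicate 1. E130012A19Rik, named Epop in GENCODE M21, fell by 1.45 ± 0.25 in control and 1.28 ± 0.25 in MUNC spliced cells (limma adjusted p 0.000148 and 0.00115). Prrt4 fell by 1.06 ± 0.24 and 0.91 ± 0.24 in these lines (limma adjusted p 0.00130 and 0.00779). Il1rl1, the receptor for interleukin 33, fell by 1.37 ± 0.41 in MUNC spliced and 1.25 ± 0.41 in MUNC genomic cells (limma adjusted p 0.0167 and 0.0185), and its control change was -0.77 ± 0.41 (limma adjusted p 0.122). The Il1rl1 call was lost without spliced-line GM replicate 3 at an adjusted p of 0.0971, and in the genomic line without GM replicate 3, without DM3 replicate 2 or with no filter, at adjusted p up to 0.0672. Adal and Lcmt2 each fell by 0.40 in control cells (SE 0.13 and 0.12; limma adjusted p 0.0155 and 0.00988), but leaving out control GM replicate 1 ended both calls, as did leaving out control DM3 replicate 3 for Adal.

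Of the 46 members called in both control and MUNC genomic cells, 42 changed in the same direction. The matching share over all genes was not computed, so this count describes the members only. The 4 that rose in control and fell in MUNC genomic cells were Pcyt2 (0.39 and -0.61), the potassium channel subunit Kcnf1 (0.50 and -0.54), 9930111J21Rik1 (1.22 and -0.96) and 9930111J21Rik2 (1.07 and -1.28). Their limma adjusted p in control cells were 0.0390, 0.0252, 0.00288 and 0.0122, and in MUNC genomic cells 0.00328, 0.0201, 0.0154 and 0.00462. The control calls of Pcyt2 and Kcnf1 held under 8 and 11 of 16 alternatives, and 9930111J21Rik2 in control cells lost its call without GM replicate 1. In the genomic line 9930111J21Rik1 lost its call without GM replicate 2, and Kcnf1 without GM replicate 3 or DM3 replicate 2. The 2 genes named 9930111J21Rik1 and 9930111J21Rik2 are near copies, so reads matching both could have gone to either or been left uncounted. Notch1, the receptor that holds myoblasts undifferentiated, fell by 0.98 ± 0.28 in MUNC genomic cells (limma adjusted p 0.00804), with 3.13, 4.69 and 1.43 FPM in GM and 0.989, 1.27 and 0.644 FPM in DM3. Its control change was 0.39 ± 0.28 (limma adjusted p 0.253).

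Interferon-stimulated genes held more members than any other gene list counted here. The list used here leaves out names beginning with Oas and Ifi, and 9 of its 49 tested genes were members: the ubiquitin-like modifier Isg15, Xaf1, Parp12, the chemokine Cxcl10, the GTPases Gbp2, Gbp3, Gbp7 and Igtp, and the peptide transporter Tap1. On differentiation 8 of the 9 were higher in control, all 9 in MUNC spliced and 5 in MUNC genomic cells, and none was lower. Of the 49 genes, 47 were higher in control, 47 in MUNC spliced and 25 in MUNC genomic cells, where 1 was lower. Their median log2 changes were 3.53, 3.30 and 0.85, against 0.02, -0.01 and 0.02 over all genes.

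The levels of the 49 genes were also set side by side between lines. Control exceeded MUNC genomic by 1 log2 unit or more for 28 in GM and 47 in DM3, where 3.09% and 6.18% of all tested genes did. MUNC spliced exceeded MUNC genomic by that much for 10 in GM and 45 in DM3, where 5.46% and 7.56% of all tested genes did. The 9 members on the list are in each of these counts by the rule, and so make up 9 of the 10 in GM. The counts are therefore a description. The difference between the media in these counts was not tested. Membership needed the difference in both media, so it took in the part of the list that also met the GM conditions.

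Isg15 had 19.5, 55.5 and 13.5 FPM in GM controls and 587, 403 and 377 FPM in DM3 controls. MUNC spliced libraries went from 2.68, 9.33 and 3.17 FPM to 255, 359 and 286 FPM, and MUNC genomic libraries from 1.76, 2.43 and 0.756 FPM to 7.10, 6.01 and 8.04 FPM. The log2 changes were 4.13 ± 0.43, 5.78 ± 0.43 and 1.65 ± 0.43 (SE; limma adjusted p 1.18e-06, 1.42e-07 and 0.00427). In each line every DM3 library exceeded every GM library, and genomic-line DM3 lay below all control GM libraries.

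Gbp3 had 4.61, 17.0 and 2.29 FPM in GM controls, 274, 176 and 122 FPM in DM3 controls, 1.99, 4.93 and 1.21 FPM in spliced-line GM and 94.5, 161 and 134 FPM in spliced-line DM3. In the genomic line it had 0.415, 0.506 and 0.378 FPM in GM and 1.33, 1.42 and 0.956 FPM in DM3. It rose by 4.71 ± 0.47 in control and 5.23 ± 0.47 in MUNC spliced cells (SE; limma adjusted p 9.21e-07 and 1.09e-06), and its change in MUNC genomic cells was 0.63 ± 0.47 (limma adjusted p 0.280). Gbp7 followed with 4.64 ± 0.56, 5.003 ± 0.56 and 0.85 ± 0.56 (limma adjusted p 4.84e-06, 9.76e-06 and 0.224), and Tap1 with 2.78 ± 0.27, 2.79 ± 0.27 and 0.50 ± 0.27 (limma adjusted p 7.18e-07, 2.27e-06 and 0.135). On recovered reads DESeq2 called the MUNC genomic rises of Gbp3, Gbp7 and Tap1 (1.52, 2.66 and 1.04).

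Xaf1, Parp12, Gbp2 and Igtp rose in all 3 lines. Xaf1 changed by 4.33 ± 0.37, 4.90 ± 0.37 and 2.26 ± 0.37 in control, MUNC spliced and genomic-line cells (SE; limma adjusted p 2.69e-07, 1.89e-07 and 0.000119). Parp12 changed by 2.52 ± 0.22, 2.37 ± 0.22 and 0.85 ± 0.22 (limma adjusted p 2.69e-07, 1.27e-06 and 0.00397). For Gbp2 the changes were 3.82 ± 0.48, 3.67 ± 0.48 and 2.63 ± 0.48 (limma adjusted p 6.38e-06, 4.34e-05 and 0.000272), and for Igtp 4.37 ± 0.59, 5.16 ± 0.59 and 2.05 ± 0.59 (limma adjusted p 1.34e-05, 1.22e-05 and 0.00870).

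A further 10 members known to respond to interferon or to belong to such families were set beside the list after their values had been seen: Gbp5, Irgm2, Ube2l6, I830012O16Rik (Ifit3b in GENCODE M21), Trim12c, Ly6a, Ly6c1, Mb21d1, 9930111J21Rik1 and 9930111J21Rik2. In control cells 9 were higher and 1 lower, in MUNC spliced cells 7 and 1, and in MUNC genomic cells 4 and 3. Irgm2 rose by 4.45 ± 0.65, 5.67 ± 0.65 and 2.56 ± 0.65 in the 3 lines (SE; limma adjusted p 2.57e-05, 1.13e-05 and 0.00352). I830012O16Rik rose by 4.48 ± 0.61 and 5.57 ± 0.61 in control and MUNC spliced cells (limma adjusted p 1.45e-05 and 7.83e-06). Its change in MUNC genomic cells was 0.46 ± 0.61 (limma adjusted p 0.557), and it was called there with a pseudocount of 0.1 (1.90), with DESeq2 on recovered reads (3.06) and when only the groups compared were fitted.

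Ly6a, the surface protein Sca-1, had 135, 155 and 59.6 FPM in GM controls and 1919.9, 1769 and 1531 FPM in DM3 controls, and 272, 184 and 136 FPM and 1009.8, 1403 and 1251 FPM in MUNC spliced cells. In the genomic line it had 40.9, 49.9 and 13.4 FPM in GM and 37.6, 32.8 and 28.4 FPM in DM3. It rose by 3.996 ± 0.40 in control and 2.67 ± 0.40 in MUNC spliced cells (SE; limma adjusted p 8.51e-07 and 0.000128), where GM and DM3 did not overlap. In MUNC genomic cells the media overlapped, with a change of 0.11 ± 0.40 (limma adjusted p 0.853) whose sign turned with edgeR (-0.10).

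**Figure D4:**
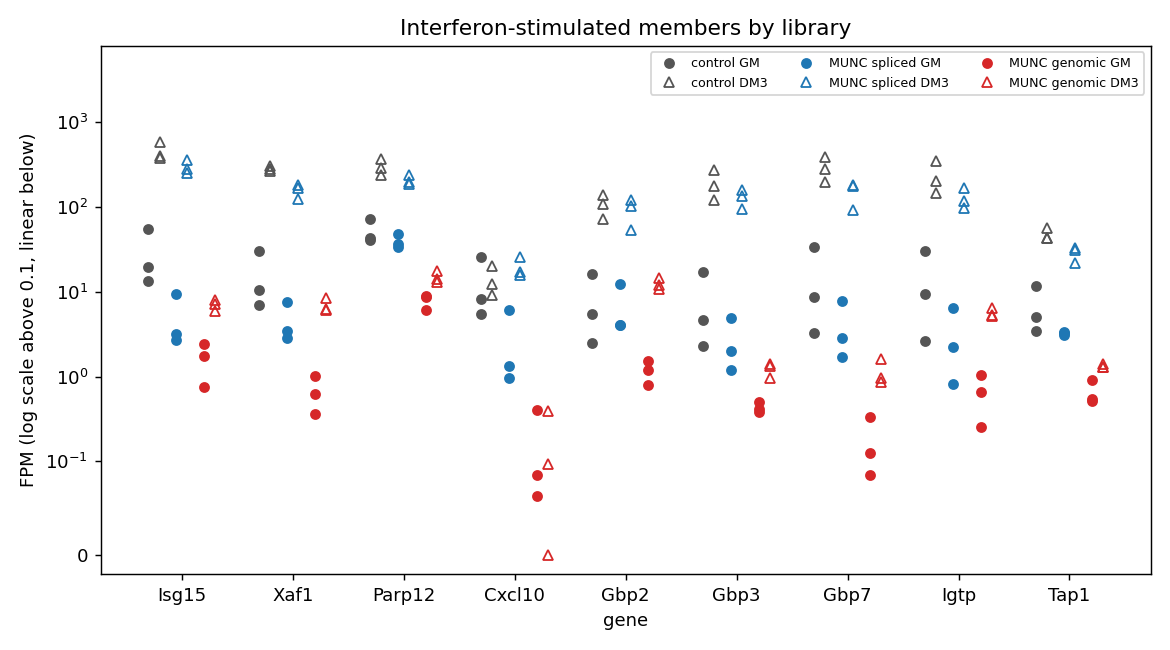
FPM of the 9 members on the interferon list, by gene on the x axis, with 1 point per library, circles for GM and triangles for DM3, on an axis that is logarithmic above 0.1 and linear below. For every gene the control and MUNC spliced triangles stand far above the MUNC genomic ones, while in GM the lines lie closer and replicate 2 of control is the highest grey circle.

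Replicate 2 stood apart for these genes in GM. Among the 19 interferon-related members, GM replicate 2 was the highest of the 3 libraries for 18 in control, 14 in MUNC spliced and 15 in MUNC genomic cells. For the 130 other members the counts were 62, 69 and 60. In DM3, replicate 1 was highest for 15 of the 19 in control, and replicate 2 for 14 in MUNC spliced cells. The counts for the 130 others there were 45 and 45. In genomic-line DM3 replicates 1, 2 and 3 were highest for 8, 6 and 5 of the 19. Without replicate 2 of GM, 8 of the 9 list members were called higher in control and all 9 in MUNC spliced cells, with median log2 changes of 4.70 and 5.25, against 4.13 and 4.90 with all libraries. Of the 8 list members recomputed this way in MUNC genomic cells, 5 were called, and their median was 1.40, against 1.25 for these 8 with all libraries.

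Whether differentiation changed the members differently in MUNC spliced and control cells was tested as an interaction. The rule set no condition on this difference, but it is made of control and MUNC spliced means that the rule used. The members' counts and median are therefore a description. The interaction was called for 28 members, 11 with a higher and 17 with a lower change in MUNC spliced cells. Over all genes 14.4% were called, 7.43% higher and 6.94% lower. The median difference was -0.13 over the members and 0.00 over all genes. The count depended on the fit, at 15 members with edgeR on recovered reads, 16 without control DM3 replicate 2 and 41 with a replicate block. Over all 13869 genes these fits called 1677, 1093 and 3868.

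Fbln5, an elastic fibre protein, had 28.0, 25.7 and 17.0 FPM in GM controls and 22.6, 19.4 and 18.9 FPM in DM3 controls, but 35.4, 16.6 and 21.6 FPM and 95.7, 60.8 and 106 FPM in MUNC spliced cells. MUNC genomic libraries stayed between 1.34 and 2.18 FPM. The MUNC spliced change exceeded that of control by 2.00 ± 0.35 (SE; limma adjusted p 0.00224), being 1.82 ± 0.25 against -0.18 ± 0.25. Rab38, a small GTPase of melanosome transport, fell by 0.54 ± 0.16 in control and rose by 0.69 ± 0.16 in MUNC spliced cells (limma adjusted p 0.00755 and 0.00322), a difference of 1.23 ± 0.22 (limma adjusted p 0.00297). The control fall lost its call without control DM3 replicate 3, at an adjusted p up to 0.0613 over its alternatives. Rab38 levels were at most 3.78 FPM.

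Cxcl10, a chemokine induced by interferon, had 8.31, 25.9 and 5.44 FPM in GM controls and 20.0, 12.5 and 9.12 FPM in DM3 controls, which overlap. In MUNC spliced cells it went from 1.34, 6.12 and 0.956 FPM to 15.8, 26.1 and 17.1 FPM, a rise of 2.66 ± 0.48 (SE; limma adjusted p 0.000555). The difference from control was 2.38 ± 0.68 (limma adjusted p 0.0290). It kept its call under 11 of 22 alternatives, with adjusted p from 0.00716 to 0.167, and lost it with both count tools and without control GM replicate 2, control DM3 replicate 2 or 3, spliced-line GM replicate 1 or 3, or spliced-line DM3 replicate 2.

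The largest differences in the other direction were those of Kbtbd11, Fam169b and Rnf150. Kbtbd11 had 13.8, 21.8 and 9.28 FPM in GM controls and 141, 149 and 177 FPM in DM3 controls, against 27.1, 74.6 and 30.1 FPM and 67.2, 114 and 77.2 FPM in MUNC spliced cells, and its change was lower there by -2.30 ± 0.52 (SE; limma adjusted p 0.00990). Fam169b rose by 3.09 ± 0.36 in control cells, and its MUNC spliced change differed by -2.20 ± 0.51 (limma adjusted p 0.0112), a call lost with edgeR, DESeq2 and a pseudocount of 0.1 at adjusted p up to 0.0807. Rnf150, a RING finger protein, rose from 32.7, 37.6 and 22.8 FPM to 104, 156 and 192 FPM in control cells, by 2.23 ± 0.33 (limma adjusted p 2.71e-05). In MUNC spliced cells it held 55.2, 69.5 and 51.3 FPM in GM and 50.3, 77.6 and 60.1 FPM in DM3, a difference of -2.14 ± 0.46 (limma adjusted p 0.00737). Control and MUNC spliced cells thus differed in the response of these genes while MUNC genomic cells were lowest in both media.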

How the data were processed

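Polyadenylated RNA of 18 libraries was sequenced. The authors deposited 1 signal table in FPM, and STAR, HTSeq, DESeq2 and mm10 are named, with no versions, per the submitters' processing notes. A label calls the values FPKM, but each library's values were whole multiples of 1 step: 100% came out within 0.05 of a whole read, so the table holds read counts divided by a size factor. FPM sums were 946834 to 1048477 per library, and 3 reads corresponded to 0.0429 to 0.0757 FPM. Tables of the authors' comparisons were deposited too, holding log2 fold changes, p-values and scores. None of these values enters the results given here, for which the tables served only to name genes. Symbols came from the authors' deposited table, and positions from GENCODE M21, which held 34490 of the 35275 identifiers (97.8%) and all 149 members.

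Differences were tested with limma 3.58.1 (R 4.3.3) on log2(FPM + 1), with a trended eBayes step. The 13869 genes tested reached 0.5 FPM in 3 libraries or more. A single fit of all 18 libraries had 6 group means, no replicate term and 12 residual degrees of freedom. Its p-values were Benjamini-Hochberg adjusted over all genes. The main counts and shares come from this fit, which leaves any pairing of replicates out. The scripts were tested on simulated data. The alternatives were edgeR 4.0.16 and DESeq2 1.42.0 on recovered reads, other scalings, pseudocounts and filters, a replicate block and leaving out each library. Changes on log2(FPM + 1) understate those of low genes.

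The members and gene lists were chosen with earlier results of these data known. The genes named were the 16 members with the largest shortfall at 5 FPM or more, the 6 highest in FPM, the 4 nearest the threshold on each side, the 3 largest called rises and falls of each test, members on a list with more than 1 member, and neighbours. Other members were named after their values were seen, as were the motif and a limit of 1000 bases between the start sites of the promoter table and of GENCODE M21. Same-numbered control libraries of GM and DM3 deviated together (r 0.203 to 0.411 in all 3 pairs), so their numbers were taken to pair them, from the values and not the labels, and the blocked fit changed no control call given. Groups came from the titles, since another label disagreed with them. Replicates are labelled biological, with no separate source stated, so p-values measure the spread between these samples.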

Additional observations from a re-analysis of the deposited data

Results flagged for a closer look

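The change with differentiation differed between MUNC spliced and control cells, by the limma test of the difference itself, for 6 members picked as the 3 largest in each direction. The MUNC spliced change was higher by 2.38 log2 units for Cxcl10, 2.00 for Fbln5 and 1.23 for Rab38. It was lower for Kbtbd11 (-2.30), Fam169b (-2.20) and Rnf150 (-2.14). Cxcl10 and Fam169b lost their calls under the count tools, and the other 4 kept theirs under every alternative run. The difference is made of group means that the rule also used, so these 6 describe the members only.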

How the results depend on the processing

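The number of members was 303 with a pseudocount of 0.1 and 74 with a required difference of 1.5, and the other settings gave 130 to 199. Leaving out 1 library gave 128 to 158 members, with 103 kept each time. Leaving out 1 library gave 91 to 99 calls in control, 64 to 86 in MUNC spliced, 41 to 53 in MUNC genomic cells and 16 to 29 in the interaction, the lowest without control DM3 replicate 2. Over all 13869 genes the same fits gave 7087 to 7879, 3297 to 5378, 5934 to 6973 and 1063 to 2434 calls. The interaction was also called for fewer members with a pseudocount of 0.1 (13), no filter (16), edgeR (15) and only the groups compared (14). Over all genes these settings called 1794, 1613, 1677 and 1214, of 24893 tested with no filter and 13869 otherwise. In MUNC genomic cells more members were called with a pseudocount of 0.1 (79), edgeR (77) and DESeq2 (80) than the 54 of the main fit. Over all 13869 genes these settings called 7257, 7139 and 7501, and the main fit 7127. Of the 104 single gene changes given, 80 kept direction and call under every alternative. The uncalled Ly6a change in MUNC genomic cells was -0.0955 with edgeR and -0.0601 with DESeq2. Without single libraries it ran from -0.45 to 0.46, that of Cxcl10 in control from -0.16 to 0.88 and that of Myf5 in MUNC genomic cells from -0.034 to 0.34. The cause was not tested. Same-numbered GM and DM3 libraries correlated over 0.1 in 2 of 3 pairs in MUNC spliced and in 2 of 3 in MUNC genomic cells (lowest r 0.0163 and 0.0531), so in these lines the numbers were not taken to pair the media. Between lines, same-numbered libraries correlated at 0.456 to 0.727 in all 9 GM pairs and at 0.0939 to 0.448 in DM3. Over the 3 lines, 7 of 9 libraries correlated best with their own number. With the replicate block the counts of members were 103, 94, 63 and 41, and none of the 104 single gene calls changed. Over all 13869 genes the block gave 9059, 6616, 8344 and 3868 calls. Depth limits members near 0 in MUNC genomic cells, where a further fall could not be seen.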
